A study of Mus musculus with 6 samples.

Results

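The ITAM costimulatory receptors of osteoclast precursors, their signalling adaptors and the Syk arm behind them were followed as a group of 10 genes, out of the 24940 genes of the deposited table. They were a fixed list matched by gene symbol, and all 10 were found. The list held 4 receptors (Oscar, Trem2, Siglec15 and Pirb), 2 adaptors (Tyrobp and Fcer1g) and 4 genes of the Syk arm (Syk, Btk, Blnk and Plcg2). All 10 also passed the filter on low values, which kept 11905 genes for testing. Oscar and Siglec15 passed it only through the libraries that had received RANKL.

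Osteoclasts, the cells that resorb bone, form when macrophage precursors receive RANKL in the presence of M-CSF. RANKL alone is not enough, because the precursors also need a costimulatory signal from receptors that have no signalling tail of their own and pair with the membrane adaptors DAP12 (encoded by Tyrobp) or the Fc receptor gamma chain (encoded by Fcer1g). Each adaptor carries an immunoreceptor tyrosine-based activation motif (ITAM), and once the tyrosines of this motif are phosphorylated they recruit the kinase Syk, which acts through the linker BLNK, the kinase Btk and phospholipase C gamma 2 to release calcium and activate NFATc1, the master transcription factor of the osteoclast. OSCAR pairs with the Fc receptor gamma chain, whereas TREM2 and Siglec-15 pair with DAP12. PIR-B, encoded by Pirb, is an inhibitory receptor whose tail recruits phosphatases.

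The cells were mouse bone marrow-derived macrophages (BMMs), whose RNA was sequenced in 3 conditions with 2 libraries each. Marrow of mice aged 6 to 8 weeks was first held for 16 h in M-CSF at 5 ng/mL, its non-adherent cells were grown for 3 days in M-CSF at 30 ng/mL, and the cells that had by then attached were kept in M-CSF at 30 ng/mL without RANKL, with RANKL at 100 ng/mL, or with the same dose of RANKL together with 10 µg/mL LEA. LEA is the ethyl acetate fraction of a water extract of the shiitake mushroom Lentinula edodes. The labels name C57BL/6 mice and TRIzol, and the methods name male ICR mice and the RNeasy kit, so the strain is not settled here. The time of harvest for sequencing is not given in the sources used here, and no source states that libraries of the same condition stem from different cultures or animals. The p-values therefore reflect the spread of these libraries only, and that spread may be technical.

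Levels are given in FPKM, the number of reads per kilobase of exon, scaled to the mapped reads of the library, which allows genes of different length to be compared. Depth, read from the steps of the low values, was 46380600 to 49593350 mapped reads per library, so that a level under 0.1 FPKM in a gene of this size rests on a handful of reads. Changes are log2 fold changes of FPKM + 0.1 from 1 limma fit over the 6 libraries. A gene was called higher or lower at a Benjamini-Hochberg adjusted p under 0.05 together with a change of at least 1.5-fold.

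The labelled cell type was checked against its markers. All 9 macrophage markers were at 1 FPKM or more, and their summed level was 10078 to 13672 FPKM without RANKL, 3989 to 4704 FPKM with RANKL alone, and 5932 to 7505 FPKM with RANKL and LEA, most of it from Lyz2. The 8 osteoclast markers summed to 26.7 to 28.3 FPKM, 5063 to 5897 FPKM, and 2517 to 2655 FPKM in the same order. Not every macrophage marker fell with RANKL. Spi1 was at 171 and 181 FPKM without RANKL and 304 and 279 FPKM with RANKL alone. Cd68 was at 515 and 568 FPKM without RANKL and 616 and 583 FPKM with RANKL alone, while all the other macrophage markers were lower with RANKL. In bulk RNA, fewer cells of a type and less RNA per cell cannot be told apart. Markers of other cells that use Syk, Btk, Blnk or Fcer1g were read too. The 7 platelet markers summed to 402 to 497 FPKM without RANKL, 10.9 to 12.3 FPKM with RANKL alone, and 37.5 to 44.8 FPKM with LEA, nearly all of it from Pf4, and the 8 neutrophil markers to 3.37 to 4.02 FPKM, 0.457 to 0.621 FPKM, and 1.19 to 1.73 FPKM, mostly from S100a8. Both sums were thus highest without RANKL, as Trem2 and Fcer1g were, and their part in those results was not tested. The 8 B cell markers summed to at most 0.338 FPKM with Pax5 and Vpreb3 at 0 in all libraries, the 8 T and NK cell markers to at most 0.17 FPKM, and the 7 mast cell and basophil markers to at most 0.08 FPKM with all but Kit at 0.

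The part of the adaptors that recruits Syk is a stretch of 15 codons in which a pair of tyrosines each stand 3 codons before a leucine or isoleucine. It is printed here for both adaptors because the receptors of Oscar, Trem2 and Siglec15, described below, have no such stretch and depend on it. Capitals mark the tyrosine codons and the leucine or isoleucine codons, with 7 codons between the first group and the second (GENCODE M21, GRCm38, coding strand).
Tyrobp: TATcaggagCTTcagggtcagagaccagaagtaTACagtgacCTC
Fcer1g: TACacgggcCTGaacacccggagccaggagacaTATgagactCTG
The Tyrobp stretch covers codons 92 to 106 of 114 and runs over the junction of exons 4 and 5 at chr7:30415670-30417382 on the plus strand. The Fcer1g stretch covers codons 65 to 79 of 86 and also runs over the junction of exons 4 and 5, at chr1:171229889-171230072 on the minus strand. A search of the coding sequences for this pattern found it in 640 of 21877 genes (2.93%), and among the 10 genes only in the 2 adaptors. Pirb had 4 matches to the pattern of an inhibitory motif (ITIM), which is far less specific, as 49.4% of coding genes had at least 1. A match is a description of letters and not a tested site.

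RANKL changed the receptors in opposite directions, left Tyrobp without a call, and moved parts of the Syk arm upwards. Of the 10 genes, 4 were called higher with RANKL (Oscar, Siglec15, Syk and Blnk) and 2 lower (Trem2 and Fcer1g), where 17.8% of all tested genes were called higher and 17.8% lower (35.7% in all). Oscar and Siglec15 passed the filter only through libraries with RANKL, so the direction of their calls was nearly set by it. They do not count towards an excess over 17.8%. With LEA added to RANKL, 3 of the 10 genes were called, all of them receptors, where 6.31% of all tested genes were called. Trem2 was higher (4.54% of all tested genes) and Oscar and Siglec15 were lower (1.77% of all tested genes). No difference between the receptors and the other genes of the list was tested. Both comparisons use the RANKL libraries, so they are not independent of each other.

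**Figure D1:**
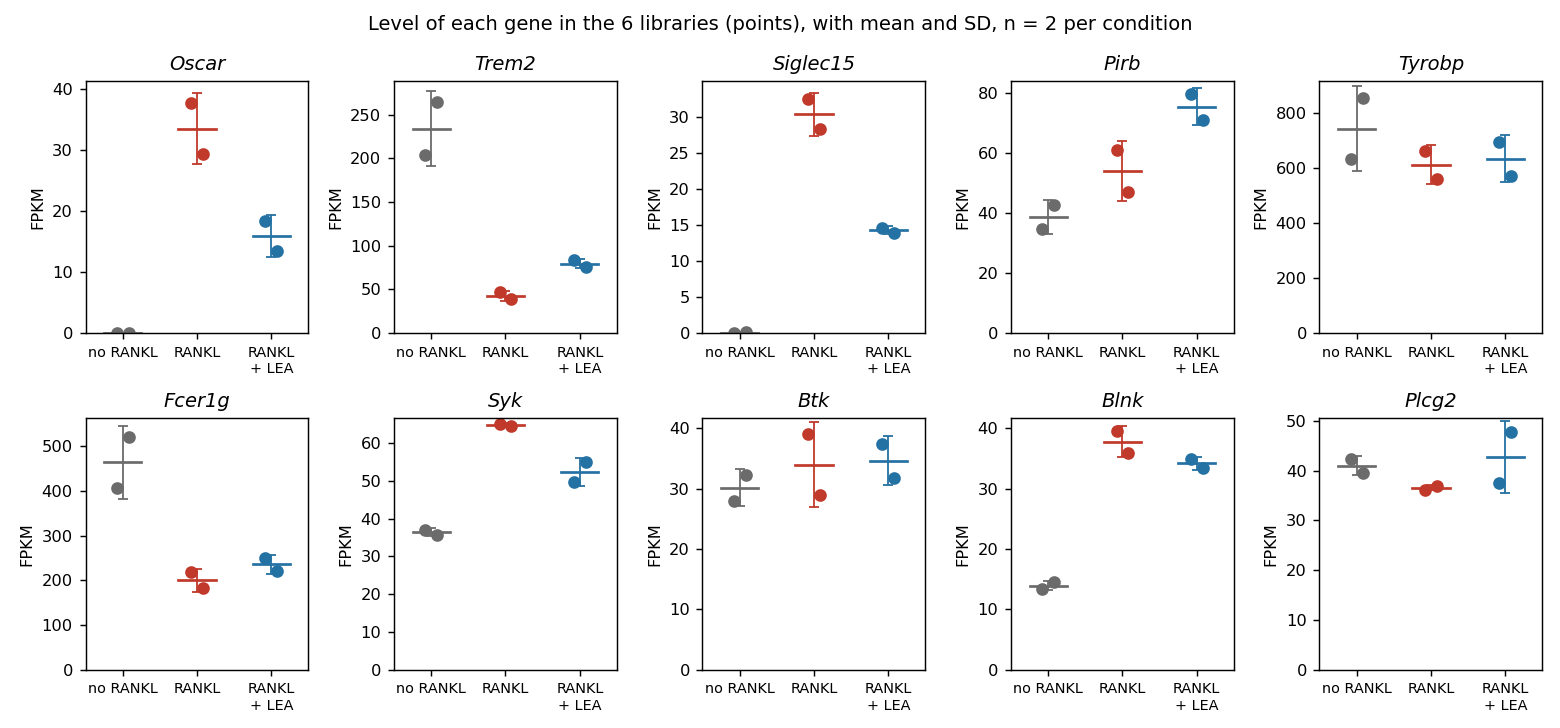
Level of each of the 10 genes in FPKM (y axis, linear, from 0) in the 3 conditions (x axis). Points are libraries, the horizontal line is the mean and the bar is the SD (n = 2). Oscar and Siglec15 lie at or near 0 without RANKL, Trem2 runs the other way from 234 to 42.5 FPKM, and both groups of libraries with RANKL lie between 562 and 694 FPKM for Tyrobp.

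Oscar, the osteoclast-associated receptor for collagen, lies at chr7:3609815-3616157 on the minus strand (GRCm38). Its level was 0 and 0.023 FPKM without RANKL, 37.6 and 29.4 FPKM with RANKL alone, and 18.3 and 13.5 FPKM with RANKL and LEA. The 3 groups did not overlap, and the macrophages without RANKL held 2 reads of this gene in both libraries together. Against those 2 reads, the normalised read count was 2932 times higher with RANKL (95% exact interval 811 to 24219, for counting error only), and the fitted log2 fold change of 8.23 (SE 0.20, limma adjusted p = 8.0e-08) depends on the value added before the logarithm. As Oscar passed the filter only through libraries with RANKL, this p-value adds no separate support to the rise. With LEA, the mean was 15.9 ± 3.40 FPKM against 33.5 ± 5.86 FPKM (SD, n = 2 each), a log2 fold change of −1.07 (SE 0.20, 95% interval −1.54 to −0.61, limma adjusted p = 0.0212). This call ended without RANKL replicate 1 (adjusted p = 0.125), without RANKL replicate 2 (0.0923), without RANKL + LEA replicate 2 (0.0953), with 0.01 FPKM added before the logarithm (0.248) and without the filter (0.0872), always with Oscar lower under LEA.

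Siglec15, a sialic acid-binding receptor of preosteoclasts and osteoclasts, lies at chr18:78043614-78057268 on the minus strand. It stood at 0.062 and 0.081 FPKM without RANKL, 32.4 and 28.2 FPKM with RANKL alone, and 14.6 and 13.8 FPKM with RANKL and LEA. As for Oscar, the groups did not overlap and the level without RANKL rested on few reads, 7 in both libraries together. Against them the normalised read count was 425 times higher with RANKL (95% exact interval 206 to 1059) and 199 times higher with RANKL and LEA (96.5 to 497), again for counting error only. LEA lowered Siglec15 by 2.12-fold relative to RANKL alone (log2 fold change −1.08, SE 0.14, 95% interval −1.40 to −0.77, limma adjusted p = 0.00550). Only without RANKL replicate 1 did this call end, at an adjusted p of 0.0571.

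Trem2, a lipid-binding receptor of macrophages and microglia, lies at chr17:48346401-48352276 on the plus strand and ran opposite to Oscar and Siglec15. Its level was 204 and 264 FPKM without RANKL, 46.4 and 38.6 FPKM with RANKL alone, and 83.2 and 75.9 FPKM with RANKL and LEA. Every library without RANKL lay above every library with LEA, and these lay above both libraries with RANKL alone. RANKL lowered Trem2 by 5.47-fold (log2 fold change −2.45, SE 0.15, limma adjusted p = 7.6e-06), and LEA raised it by 1.88-fold over RANKL alone (log2 fold change 0.91, SE 0.15, 95% interval 0.56 to 1.26, limma adjusted p = 0.0140). The call for LEA ended without the filter (adjusted p = 0.0687) and when any 1 of the 4 libraries with RANKL was left out (without RANKL replicate 1, 0.0579; without RANKL replicate 2, 0.117; without RANKL + LEA replicate 1, 0.0893; without RANKL + LEA replicate 2, 0.0512). With RANKL and LEA, Trem2 was still 2.92-fold below the cells without RANKL (limma adjusted p = 1.5e-04).

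Pirb, the inhibitory receptor, lies at chr7:3712505-3720382 on the minus strand. It was at 34.7 and 42.7 FPKM without RANKL, 61.0 and 46.9 FPKM with RANKL alone, and 79.6 and 70.9 FPKM with RANKL and LEA. The groups did not overlap and stood in that order. Neither step was called by itself: the log2 fold change was 0.47 for RANKL (SE 0.16, limma adjusted p = 0.0373, under 1.5-fold) and 0.49 for LEA over RANKL (SE 0.16, limma adjusted p = 0.102). The call for RANKL appeared without the no RANKL replicate 2 (log2 fold change 0.62, adjusted p = 0.0276) or without RANKL replicate 2 (0.66, adjusted p = 0.0249). From no RANKL to RANKL with LEA, Pirb rose 1.95-fold (log2 fold change 0.96, SE 0.16, limma adjusted p = 0.00211). Of the 100-base windows of its transcript, 24.6% occur letter for letter in other genes of the Pira and Lilra family, so part of its reads may belong to them, and its level is uncertain to that extent. The other 9 genes shared no such window.

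The stretch of 250 bases before the start site is printed for Oscar, which rose, and for Trem2 and Fcer1g, which fell with RANKL (RefSeq, GRCm38.p6, coding strand, Oscar at chr7:3616158-3616407 minus, Trem2 at chr17:48346151-48346400 plus, Fcer1g at chr1:171234350-171234599 minus). Capitals mark GGAAA or its reverse complement TTTCC, the core letters bound by NFAT factors.
Oscar: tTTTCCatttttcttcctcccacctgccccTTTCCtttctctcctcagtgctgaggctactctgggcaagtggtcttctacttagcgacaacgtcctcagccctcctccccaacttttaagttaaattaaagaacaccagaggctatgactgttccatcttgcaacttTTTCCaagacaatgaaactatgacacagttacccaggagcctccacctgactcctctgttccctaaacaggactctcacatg
Trem2: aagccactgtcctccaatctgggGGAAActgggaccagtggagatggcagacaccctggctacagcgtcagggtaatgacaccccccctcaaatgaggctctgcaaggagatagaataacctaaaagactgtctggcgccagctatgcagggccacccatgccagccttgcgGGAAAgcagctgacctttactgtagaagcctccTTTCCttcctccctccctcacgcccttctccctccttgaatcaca
Fcer1g: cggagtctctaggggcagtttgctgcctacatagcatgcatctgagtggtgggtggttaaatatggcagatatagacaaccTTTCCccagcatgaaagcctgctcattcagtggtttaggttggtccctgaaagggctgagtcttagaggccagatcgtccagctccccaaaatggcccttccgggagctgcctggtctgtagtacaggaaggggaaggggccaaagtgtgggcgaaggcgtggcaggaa
On both strands, GGAAA occurred 3 times in Oscar, 3 times in Trem2 and 1 time in Fcer1g, and 55.6% of 32851 promoters of this length held at least 1. GGAA, the ETS core, which also counts every GGAAA, occurred 6, 4 and 5 times (93.4% of promoters). The E-box CANNTG occurred 4, 2 and 1 times (66.2% of promoters). CATGTG, the form of that E-box bound by MITF, stood 1 time in Oscar and in neither of the others (12.3% of promoters), and the AP-1 letters TGANTCA stood 1 time in Trem2 and in neither of the others (6.75% of promoters). Oscar and Trem2 had the same number of GGAAA matches. Of the other genes that RANKL raised, Blnk had no GGAAA match and Syk had none before its first listed start and 1 before the other. The Blnk stretch lies within the span of the transcript counted here, so it is not the stretch before the start of that transcript. In all, 8 of the 10 genes had a promoter in the table.

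As the activating receptors signal through the 2 adaptors, their levels were also read against each other within each library. Trem2 made up 99.97% and 99.96% of the summed FPKM of Trem2, Siglec15 and Oscar without RANKL, 39.9% and 40.1% with RANKL alone, and 71.6% and 73.5% with RANKL and LEA. The sum itself was 203.9 and 264.1 FPKM, 116.5 and 96.2 FPKM, and 116.2 and 103.3 FPKM in that order. The summed level of these receptors therefore overlapped between RANKL alone and RANKL with LEA, while the share of Trem2 in it did not. Trem2 per unit of its adaptor Tyrobp was 0.321 and 0.309 without RANKL, 0.0701 and 0.0686 with RANKL alone, and 0.120 and 0.132 with LEA. Siglec15 per Tyrobp was 0.0489 and 0.0502 with RANKL and 0.0211 and 0.0241 with LEA, and Oscar per Fcer1g was 0.172 and 0.161 with RANKL and 0.0732 and 0.0612 with LEA. The ratio of Trem2 to Siglec15, the receptors that share DAP12, was 3288 and 3259 without RANKL, 1.43 and 1.37 with RANKL alone, and 5.70 and 5.49 with LEA. Without RANKL it rests on 3 and 4 reads of Siglec15, so neither its size nor the closeness of its values is well measured. These ratios are given as values, and no test was run on them.

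**Figure D2:**
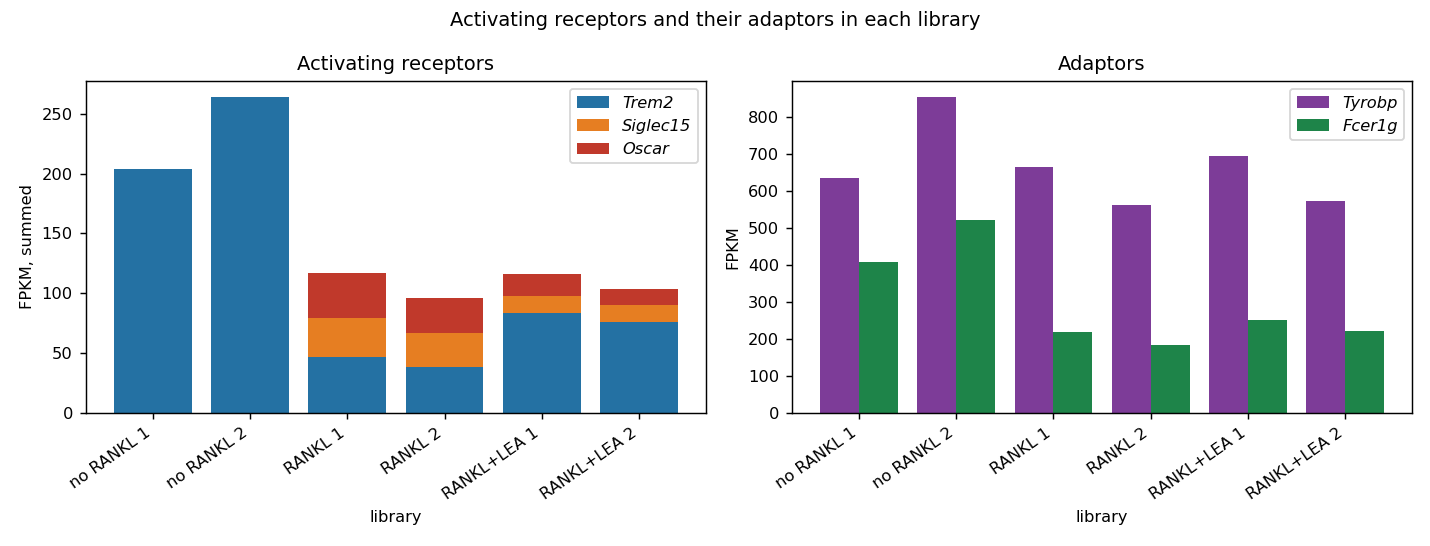
Left, summed FPKM of the activating receptors Trem2, Siglec15 and Oscar (stacked bars, y axis from 0) in each of the 6 libraries. Right, FPKM of the adaptors Tyrobp and Fcer1g in the same libraries. The stacks with RANKL and with RANKL and LEA are of like height (96.2 to 116.5 FPKM), but Trem2 fills about 40.0% of the first and 72.6% of the second on average.

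Tyrobp, which encodes DAP12, lies at chr7:30413788-30417579 on the plus strand and had the highest level of the 10 genes in every condition. It was at 634 and 854 FPKM without RANKL, 663 and 562 FPKM with RANKL alone, and 694 and 573 FPKM with RANKL and LEA. The 3 groups overlapped. The log2 fold change was −0.27 for RANKL (SE 0.17, 95% interval −0.67 to 0.13, limma adjusted p = 0.227) and 0.05 for LEA over RANKL (SE 0.17, 95% interval −0.35 to 0.44, limma adjusted p = 0.913), and the latter changed sign under median scaling and without RANKL replicate 2 or RANKL + LEA replicate 1 (−0.01, −0.07 and −0.09). A change of up to 0.44 on the log2 scale with LEA is thus within the interval. For RANKL, the log2 fold change of Tyrobp ran from −0.50 to −0.27 over the alternatives other than leaving out a library. The limma adjusted p-values there ran from 0.0078 to 0.392. With 1 library left out, the change was −0.48 to −0.06. It stayed under 1.5-fold and had no call in any alternative.

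Fcer1g, which encodes the Fc receptor gamma chain, lies at chr1:171229572-171234349 on the minus strand. Its level was 407 and 522 FPKM without RANKL, 218 and 182 FPKM with RANKL alone, and 250.5 and 221 FPKM with RANKL and LEA. Both conditions with RANKL lay below the cells without it and did not overlap with each other, although narrowly. RANKL lowered Fcer1g by 2.31-fold (log2 fold change −1.21, SE 0.15, limma adjusted p = 3.7e-04), and the difference between RANKL with LEA and RANKL alone was 0.24 on the log2 scale (SE 0.15, 95% interval −0.11 to 0.59, limma adjusted p = 0.412). The level of Tyrobp per Fcer1g was 1.56 and 1.64 without RANKL, 3.04 and 3.09 with RANKL alone, and 2.77 and 2.59 with LEA. The mean of Fcer1g, the adaptor of Oscar, was lowest with RANKL alone, where Oscar was highest, but its difference from RANKL with LEA was not called.

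Syk, the kinase that docks on phosphorylated ITAMs, lies at chr13:52583437-52648792 on the plus strand. It stood at 37.1 and 35.7 FPKM without RANKL, 65.1 and 64.5 FPKM with RANKL alone, and 49.7 and 55.0 FPKM with RANKL and LEA. The groups did not overlap, and the libraries with LEA lay between the others. RANKL raised Syk by 1.78-fold (log2 fold change 0.83, SE 0.10, limma adjusted p = 2.7e-04). The difference of −0.31 between RANKL with LEA and RANKL alone did not pass the test (SE 0.10, 95% interval −0.54 to −0.08, limma adjusted p = 0.101). Against no RANKL, RANKL with LEA gave 0.52 (SE 0.10, limma adjusted p = 0.00433), which is under 1.5-fold, and without RANKL + LEA replicate 1 it was 0.60 and called (adjusted p = 0.0120). Per unit of both adaptors together, Syk was 0.0356 and 0.0259 without RANKL, 0.0739 and 0.0867 with RANKL alone, and 0.0527 and 0.0693 with LEA.

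Blnk, the linker that Syk phosphorylates and that holds Btk and phospholipase C gamma together, lies at chr19:40928927-40994535 on the minus strand. Its level was 13.4 and 14.4 FPKM without RANKL, 39.6 and 36.0 FPKM with RANKL alone, and 34.9 and 33.5 FPKM with RANKL and LEA. RANKL raised Blnk by 2.70-fold (log2 fold change 1.43, SE 0.10, limma adjusted p = 1.9e-05). With LEA, the difference from RANKL alone was −0.14 (SE 0.10, 95% interval −0.38 to 0.10, limma adjusted p = 0.486), and the level was still 2.45-fold above the cells without RANKL (limma adjusted p = 5.5e-05). Blnk per Syk was 0.361 and 0.405 without RANKL, 0.609 and 0.557 with RANKL alone, and 0.702 and 0.608 with LEA. Of the 4 genes that RANKL raised, Blnk and Syk had no call for LEA, but their changes were not tested against those of Oscar and Siglec15.

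Btk, the Tec family kinase of this arm, lies at chrX:134542341-134583140 on the minus strand. It was at 28.0 and 32.4 FPKM without RANKL, 39.0 and 29.0 FPKM with RANKL alone, and 37.5 and 31.8 FPKM with RANKL and LEA, with all groups overlapping. Its log2 fold change was 0.16 for RANKL (SE 0.16, 95% interval −0.22 to 0.54, limma adjusted p = 0.448) and 0.04 for LEA over RANKL (SE 0.16, 95% interval −0.34 to 0.42, limma adjusted p = 0.928). Both signs turned when a library was left out, to −0.05 for RANKL without RANKL replicate 1, and to −0.18 and −0.08 for LEA without RANKL replicate 2 and without RANKL + LEA replicate 1.

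Plcg2, which encodes phospholipase C gamma 2, lies at chr8:117498275-117635142 on the plus strand. It stood at 42.3 and 39.6 FPKM without RANKL, 36.2 and 37.0 FPKM with RANKL alone, and 37.6 and 47.8 FPKM with RANKL and LEA. The log2 fold change was −0.16 for RANKL (SE 0.13, 95% interval −0.46 to 0.14, limma adjusted p = 0.333) and 0.21 for LEA over RANKL (SE 0.13, 95% interval −0.09 to 0.51, limma adjusted p = 0.390). As the linker rose and these enzymes had no call, Blnk per Btk was 0.479 and 0.446 without RANKL, 1.02 and 1.24 with RANKL alone, and 0.931 and 1.05 with LEA.

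**Figure D3:**
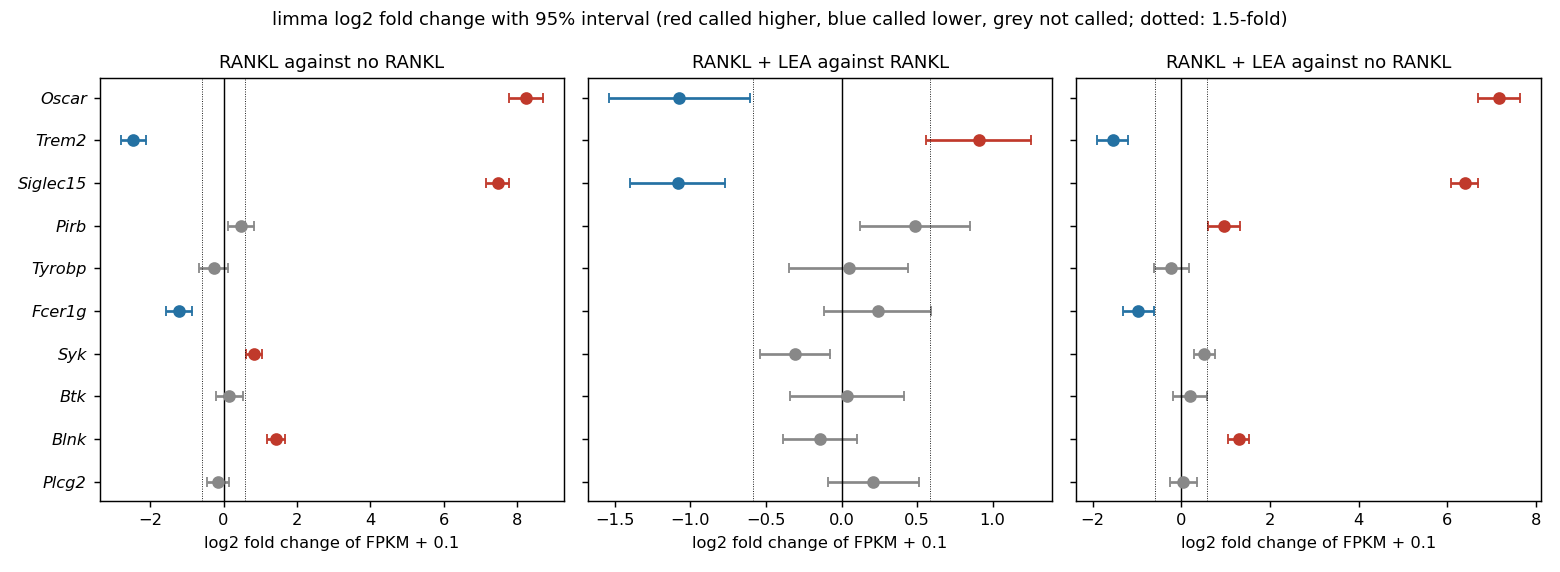
log2 fold change of FPKM + 0.1 for each of the 10 genes (x axis, with its own range in each panel) in the 3 comparisons, with the 95% interval of the limma fit as a bar. Red points were called higher, blue points lower and grey points neither, and dotted lines mark 1.5-fold. In the middle panel only Trem2 (0.91), Oscar (−1.07) and Siglec15 (−1.08) are coloured.

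Against the cells without RANKL, RANKL with LEA had 4 of the 10 genes called higher (Oscar, Siglec15, Pirb and Blnk) and 2 lower (Trem2 and Fcer1g), where 15.5% of all tested genes were called higher and 11.8% lower (27.3% in all). Here too the filter nearly set the direction for Oscar and Siglec15, which do not count towards an excess over 15.5%. Siglec15 had a log2 fold change of 6.39 and Oscar of 7.16 in this comparison, so LEA left both far above the macrophages without RANKL. Fcer1g was 1.96-fold lower (log2 fold change −0.97, SE 0.15, limma adjusted p = 0.00172).

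In order of level, Tyrobp, Fcer1g and Trem2 led without RANKL and did not overlap with each other or with the rest. Plcg2, Pirb and Syk followed with overlapping values, then Btk, Blnk, Siglec15 and Oscar, each separate from the next. With RANKL, Tyrobp and Fcer1g still led, Syk came next and then Pirb, and the levels of Trem2, Blnk, Plcg2, Btk, Oscar and Siglec15 formed a run in which neighbours overlapped, between 28.2 and 46.4 FPKM. With RANKL and LEA, Trem2 returned to the third place, where it overlapped with Pirb, Syk came after them, and Oscar and Siglec15 were last and overlapped.

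The libraries of a condition differed in the share of their reads that fell on genes, and most of the 10 genes followed it. The share was 80.0% and 82.9% without RANKL, 82.0% and 78.9% with RANKL alone, and 81.9% and 79.1% with LEA. In the library with the larger share, 8 of the 10 genes were higher without RANKL, 9 of the 10 with RANKL and 8 of the 10 with LEA. The like count over all genes was not made, so these counts are not a trait of the 10 genes. Over all tested genes, the median log2 fold change for RANKL was −0.071 without RANKL replicate 1 and 0.075 without RANKL replicate 2. Plcg2 was the exception in all 3 conditions, and Syk in 2 of them. The part of this share in the spread of the genes was not tested.

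The wider pathway was read from a list of 142 genes besides the 10. Of these, 137 were in the table and 115 passed the filter. With RANKL, 27 of the 115 were called higher (23.5%, where 17.8% of all tested genes were) and 43 lower (37.4%, against 17.8%), with a median log2 fold change of −0.34 where that of all tested genes was 0.00. Several of the 27 are genes of the Pira and Lilra family with near-identical sequences, which do not count as separate observations. The 23.5% therefore cannot be read as an excess over 17.8%. With LEA added to RANKL, 18 were called higher (15.7%, against 4.54%) and 5 lower (4.35%, against 1.77%), with a median of 0.17 against 0.05 for all tested genes. The members of this list were chosen with earlier results of these data known. Some of them passed the filter only through libraries with RANKL, and some only through libraries without it, which nearly set the direction of their RANKL calls.

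Other receptors that signal through Tyrobp or Fcer1g, or carry an ITAM of their own, numbered 24 tested genes. RANKL lowered 12 of them (50%, against 17.8% of all tested genes) and raised 8 (33.3%, against 17.8%), with a median of −0.77. Relative to RANKL alone, LEA raised 10 (41.7%, against 4.54%) and lowered none (against 1.77%), with a median of 0.67, and 7 of these 10 calls ended in at least 1 alternative. Clec4e (Mincle), a receptor for mycobacterial glycolipids, stood at 22.5 ± 2.34 FPKM without RANKL, 5.56 ± 0.335 FPKM with RANKL alone and 22.3 ± 3.71 FPKM with LEA (SD, n = 2 each), and its rise with LEA had a log2 fold change of 1.97 (SE 0.14, limma adjusted p = 7.9e-04). Its relative Clec4d was at 207 ± 29.8, 60.0 ± 1.38 and 149 ± 17.5 FPKM, and Fcgr3, a receptor for immune complexes, at 125 ± 10.3, 10.9 ± 0.964 and 25.4 ± 0.786 FPKM. These 3 calls for LEA held in every alternative that was run, with adjusted p-values of at most 0.0485. Clec5a, a DAP12-linked lectin, ran another course, at 9.35 ± 0.153 FPKM without RANKL, 8.68 ± 0.012 FPKM with RANKL alone and 15.8 ± 1.35 FPKM with LEA. The receptors that RANKL raised were led by Pira2 (9.78 to 29.4 FPKM), Pira1, Pira4 and Pira7. These are activating partners of Pirb with near-identical sequences, whose reads could be split between them. Nearly all of the 8 raised receptors belonged to the Pira and Lilra family. They do not count as separate observations, so the 33.3% cannot be read as an excess of independent genes over 17.8%.

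Among co-receptors and ligands, 2 of the 9 tested were called higher with RANKL (22.2%, near the 17.8% of all tested genes) and 5 lower (55.6%, against 17.8%). Itgb3, the beta3 chain of the integrin that also uses these adaptors, stood at 1.39 ± 0.0933 FPKM without RANKL, 112 ± 2.60 FPKM with RANKL alone and 61.3 ± 1.73 FPKM with LEA, and LEA lowered it (log2 fold change −0.87, SE 0.10, limma adjusted p = 0.00451), a call that ended without RANKL replicate 2 (adjusted p = 0.0505). Tnfrsf11a, which encodes the RANKL receptor RANK, was at 46.1, 66.1 and 54.0 FPKM, with no call in either step (log2 fold change 0.52 and −0.29). Plxna1, a partner of TREM2 and DAP12, was at 18.3, 25.1 and 30.6 FPKM and had no call either (0.45 and 0.26). Apoe, a ligand of TREM2, fell from 2372 ± 146 to 67.0 ± 6.75 FPKM with RANKL.

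Among the kinases of the Src and Tec families, which phosphorylate ITAMs or act beside Btk, RANKL raised Src and Fgr and lowered Fyn and Lyn. Src rose from 0.482 ± 0.00354 to 71.2 ± 13.6 FPKM and Fgr from 1.40 ± 0.153 to 20.6 ± 2.67 FPKM, while Lyn fell from 71.5 ± 5.61 to 39.4 ± 3.06 FPKM (SD, n = 2 each). Src was under 0.5 FPKM in both libraries without RANKL and passed the filter only through libraries with RANKL, which nearly set the direction of its call. Downstream of Syk, 6 of 29 tested genes were called higher with RANKL (20.7%, near the 17.8% of all tested genes) and 8 lower (27.6%, against 17.8%). Lat, a linker best known from T cells, rose from 0.150 ± 0.0219 to 13.4 ± 2.45 FPKM, and Bcar1, the podosome scaffold p130Cas, from 0.0400 to 4.03 ± 0.208 FPKM, and both were called lower with LEA (log2 fold change −0.93 and −0.87, limma adjusted p = 0.0198 and 0.0407). Lat and Bcar1 are among the 6 genes called higher with RANKL. Like Src, they passed the filter only through libraries with RANKL, so the direction of these calls was nearly set by it. The LEA calls for Lat and Bcar1 ended when any 1 of the 4 libraries with RANKL was left out, with adjusted p-values of up to 0.106 and 0.212 over all alternatives. T cell markers stayed at or under 0.17 FPKM in sum, as given above.

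Of 31 tested inhibitors of the pathway, 7 were called higher with RANKL (22.6%, near the 17.8% of all tested genes) and 10 lower (32.3%, against 17.8%). Ptpn22, a phosphatase of Src family kinases, rose from 12.8 ± 0.247 to 43.1 ± 2.71 FPKM, and Dok2, an adaptor that damps kinase signals, fell from 75.9 ± 6.01 to 16.8 ± 1.52 FPKM. Ptpn6, which encodes the phosphatase SHP-1 that binds PIR-B, was at 107, 149 and 153 FPKM and not called (log2 fold change 0.48 for RANKL and 0.04 for LEA). For LEA over RANKL, 3 of the 31 inhibitors were called higher (9.68%, against 4.54% of all tested genes) and none lower (against 1.77%). All 3 calls ended in at least 1 alternative. In the calcium arm, 2 of 16 tested genes were called higher with RANKL (12.5%, under the 17.8% of all tested genes) and 5 lower (31.3%, against 17.8%). Nfatc1 stood at 7.19 ± 1.07 FPKM without RANKL, 76.6 ± 2.16 FPKM with RANKL alone and 48.5 ± 9.67 FPKM with LEA. Its call for LEA (log2 fold change −0.67, SE 0.16, limma adjusted p = 0.0412) ended under 7 alternatives, among them leaving out RANKL replicate 1, RANKL replicate 2 or RANKL + LEA replicate 1, with adjusted p-values of up to 0.205. Orai2, a calcium channel subunit, rose from 7.92 ± 0.416 to 29.3 ± 4.39 FPKM, while Nfatc2 fell from 14.1 ± 1.29 to 5.23 ± 0.441 FPKM. With LEA, Nfatc2 was at 9.75 ± 2.27 FPKM and was called higher than with RANKL alone (log2 fold change 0.87, SE 0.17, limma adjusted p = 0.0244). That call ended under 4 alternatives. In the calcium arm, LEA thus had 1 gene called higher and 1 lower (6.25% each, against 4.54% and 1.77% of all tested genes).

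**Figure D4:**
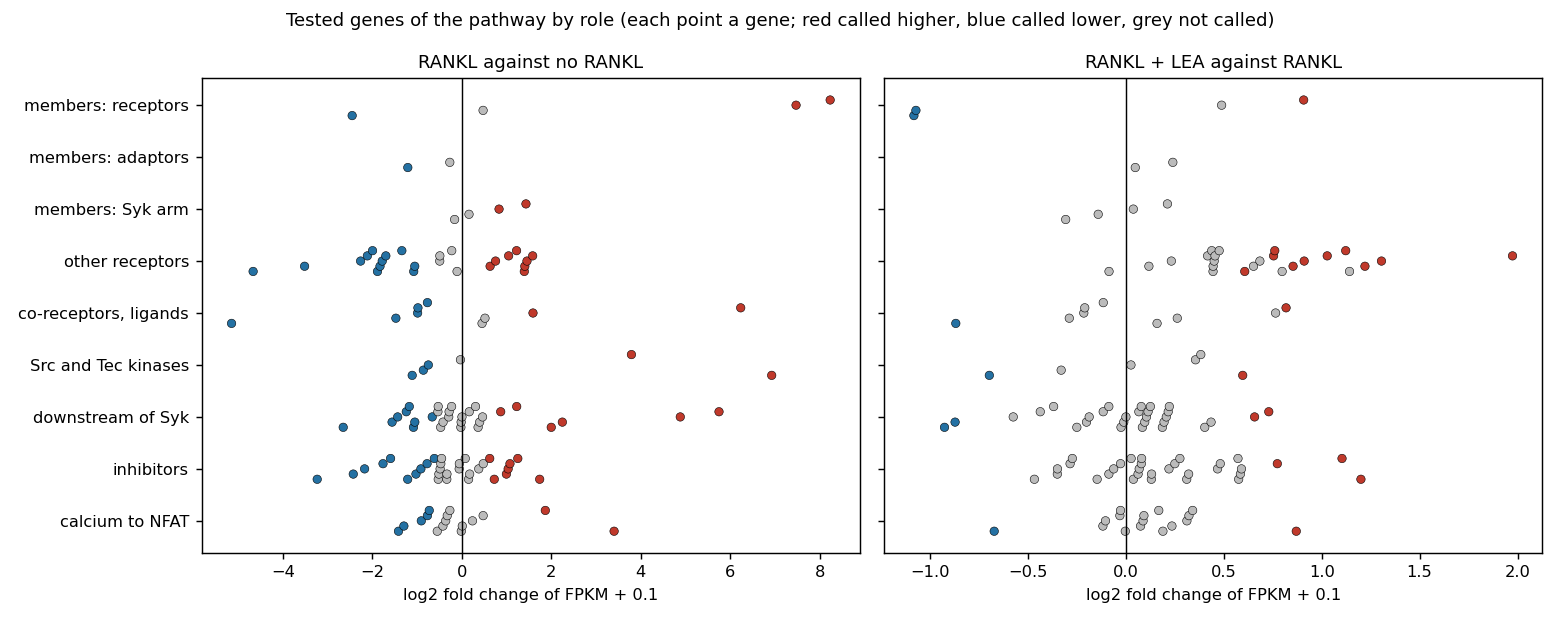
log2 fold change of FPKM + 0.1 (x axis, with its own range in each panel) for the 10 genes and the 115 tested genes of the wider pathway, in rows by role. RANKL against no RANKL is on the left and RANKL with LEA against RANKL on the right. Each point is 1 gene, red if called higher, blue if called lower and grey otherwise, and the vertical shift within a row only separates points. In the row of other receptors 12 points are blue and 8 red on the left (17.8% of all tested genes were called in each direction), and 10 are red and none blue on the right (4.54% and 1.77% of all tested genes). Nearly all of the 8 red points on the left are of the Pira and Lilra family and do not count as separate observations.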

How the data were processed

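The deposited FPKM values were made by the authors with HISAT2, which placed the reads on mm10, and HOMER, which counted exon reads of 1 RefSeq transcript for each gene on both strands (versions not given in the sources used here). Strand was not used, so reads of a gene and an antisense partner are not told apart, but none of the 10 genes overlaps another gene of the table. The table's 2 columns of gene symbols from the authors' own comparisons were not used. The results of some genes are not reported here.

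Genes reaching 0.5 FPKM in 2 or more libraries were fitted as log2(FPKM + 0.1) with limma 3.58.1 in R 4.3.3 (lmFit, eBayes with trend) over all 6 libraries, with 3 residual degrees of freedom. Benjamini-Hochberg adjustment ran over the 11905 genes of each comparison. A fold change on this scale understates that of low genes. FPKM times exon length gave whole multiples of 1 step in 100% of the low values (genes under 3000 bases, up to 20.5 reads, tolerance of 0.1 read), which gave the depth. Counting intervals are exact 95% binomial intervals and cover counting error only. The fit was tested on simulated data.

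The text names the 10 genes, Nfatc1, Tnfrsf11a, Plxna1 and Ptpn6, up to 5 called genes with the smallest p per list and direction, the 3 genes nearest in profile to Oscar, Trem2 and Btk, and markers whose mean reached 1 FPKM. The markers named at 0 were chosen after their values were seen. The members and lists were chosen with earlier results of these data known. Promoters came from RefSeq (GRCm38.p6) and coding sequences from GENCODE M21. The alternatives were other pseudocounts, no filter, other scalings, the replicate number as a block, the estimate of the spread and each library left out. Python 3.11.15, numpy 2.4.6, pandas 2.3.3, scipy 1.17.1 and matplotlib 3.10.9 were used.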

Additional observations from a re-analysis of the deposited data

How the results depend on the processing

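All 6 RANKL calls among the 10 genes held in each of the 16 alternatives, and the LEA calls did so less well. For LEA over RANKL, 540 of all genes were called higher and 211 lower. These counts were 210 and 81 without the filter, 439 and 328 (57.2% higher, against 71.9%) under quantile normalization, 473 and 301 (61.1% higher) under median scaling, and 108 to 460 and 11 to 209 with 1 library left out. Of the 10 genes, none was called higher and 1 lower without the filter, 1 was called lower with a pseudocount of 0.01 FPKM, and with 1 library left out 0 to 1 were higher and 0 to 2 lower. Of the wider list, 5 to 17 were higher and 1 to 5 lower with 1 library left out, and the lower count was 1 without the filter and 3 without a trend in eBayes. With 1 library left out, a lone library is assumed to vary like the others. The sign turned for genes with no call: Btk with RANKL (−0.053 to 0.37 with 1 library left out), Tyrobp with LEA (−0.011 under median scaling, −0.091 to 0.19 with 1 library left out), Btk with LEA (−0.021 and −0.18 to 0.25) and Plcg2 from no RANKL to RANKL with LEA (−0.030 and −0.12 to 0.22). The causes were not tested.

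Same-numbered libraries deviated from their group means with correlations of −0.08 (no RANKL and RANKL), −0.25 (no RANKL and LEA) and 0.12 (RANKL and LEA). These values cannot decide whether same-numbered libraries belong together, because the share of reads on genes also differs between the libraries of a condition. That share was larger in replicate 2 without RANKL and in replicate 1 in the other conditions. With the replicate block, 492 genes were higher and 185 lower with LEA, and 3 of the wider list were lower. The block changed no call among the 10 genes. Pairing the numbers crosswise, chosen after seeing the data, gave 693 and 270.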

Other observations

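The genes nearest to 3 of the 10 in profile were sought among the 7490 genes whose mean reached 5 FPKM, by the root mean square distance of the centred log2 values over the 6 libraries. Nearest to Oscar were Cd200, a surface glycoprotein (0.171), Ocstamp, a fusion protein of osteoclast precursors (0.200), and Calcr, the calcitonin receptor (0.206). Calcr was listed at 0 FPKM without RANKL, at a mean of 22.9 FPKM with RANKL and at 11.3 FPKM with RANKL and LEA, and Ocstamp at 0.209, 80.8 and 39.0 FPKM. Nearest to Trem2 were P2ry6, a nucleotide receptor (0.0862), Atf3, a stress-induced transcription factor (0.106), and Alox5ap, which serves leukotriene synthesis (0.115). P2ry6 had means of 86.0, 15.4 and 28.2 FPKM, and Alox5ap of 272, 57.5 and 109 FPKM. For Btk, whose groups overlapped, the nearest were Rhbdd1 (0.0162), Mir5625 (0.0252) and Clk3 (0.0352), and such small distances arise because all of them had nearly level profiles.

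Pf4, listed as a platelet marker, was at 400.3 and 495 FPKM without RANKL, 11.6 and 10.3 FPKM with RANKL, and 44.1 and 36.7 FPKM with RANKL and LEA. No other platelet marker on the list had a mean of 1 FPKM. S100a8, listed as a neutrophil marker, was at 2.60 and 2.84 FPKM without RANKL, 0.325 and 0.334 FPKM with RANKL, and 1.73 and 0.938 FPKM with RANKL and LEA, while Ly6g was at 0 in all libraries. Both genes were highest without RANKL and lowest with RANKL alone, as Trem2 was. Their part in its course was not tested.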
